A study of Mus musculus with 91 samples.

Results

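The livers compared here came from male C57BL mice labelled as given pioglitazone, called Pio livers below, and from the vehicle cohort that the labels assign to them, CMC Co5. They are 9 of the 91 arrays of a series on carcinogenic and non-carcinogenic chemicals, with 1 array per mouse, and were taken by their titles. By their labels the 5 Pio mice received 100 mg/kg pioglitazone by daily gavage for 28 days. The 4 CMC Co5 mice received carboxymethylcellulose, a thickener used to suspend poorly soluble drugs, at 0 mg/kg of compound for 28 days. Responses of other mice of the series, each with its own control, are set beside them: Wy-14643 (WY, 100 mg/kg by gavage, 5 mice, against the 4 mice of CMC Co1), methapyrilene (MePy, 1000 ppm in the food, 5 mice, against the 4 mice of CMC Co3) and phenobarbital (PB, 0.05% in the drinking water, 5 mice, against 5 mice given water), all for 28 days and in male C57BL mice. A last comparison, of Cyp2b10 alone, adds C57BL mice given PB for 56 days, cyproterone acetate, 1,4-dichlorobenzene, piperonyl butoxide or CITCO, at doses of their own. Their controls were water for 56 days, the same corn oil group for cyproterone acetate and 1,4-dichlorobenzene, CMC Co2 for piperonyl butoxide and CMC Co4 for CITCO. The series also holds mice of another genotype, labelled hCAR/hPXR. They enter no comparison here, but their arrays enter the spread within groups on which the tests rest. The series states groups of 5 mice assigned at random, so replicates were taken as separate mice.

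Pioglitazone is a thiazolidinedione, an insulin-sensitising drug that binds PPARγ, a nuclear receptor most abundant in fat cells, where it switches on genes of fatty acid uptake and lipid storage. In mouse liver, where PPARγ is low, its activation is best known for raising lipid droplet genes such as Fabp4, Cidec and Cidea. The related receptor PPARα, which Wy-14643 binds, controls fatty acid oxidation in hepatocytes. CAR is a further nuclear receptor of hepatocytes. Drugs such as phenobarbital activate it, it pairs with RXR on DNA, and Cyp2b10, a drug-metabolising cytochrome P450, is its best known target in the mouse.

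In Pio livers Cyp2b10, Cyp2c55 and Cyp2c29 were higher than in CMC Co5 and Tor3a was lower, and no other gene of 18193 tested passed. For Tor3a the CMC Co5 mean stood above those of the other CMC cohorts. The sequences before the start sites of the 3 P450 genes are printed because these genes carry the response. They are the 250 bases upstream of the RefSeq start on the plus strand of GRCm38.p6, at chr7:25897408-25897657 for Cyp2b10, chr19:39006769-39007018 for Cyp2c55 and chr19:39286835-39287084 for Cyp2c29. Capitals mark AGGTCA, the half-site that many nuclear receptors bind, and TATAAA, the core of a TATA box, each searched on both strands.
Cyp2b10: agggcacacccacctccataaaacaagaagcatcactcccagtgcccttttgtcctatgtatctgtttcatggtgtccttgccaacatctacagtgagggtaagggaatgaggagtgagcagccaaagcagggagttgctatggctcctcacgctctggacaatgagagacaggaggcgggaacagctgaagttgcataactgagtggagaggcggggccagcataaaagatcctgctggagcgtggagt
Cyp2c55: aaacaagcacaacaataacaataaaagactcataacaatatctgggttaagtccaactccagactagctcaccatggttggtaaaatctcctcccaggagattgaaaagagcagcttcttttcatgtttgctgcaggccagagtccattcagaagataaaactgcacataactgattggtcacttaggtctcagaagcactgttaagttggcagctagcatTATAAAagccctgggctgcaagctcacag
Cyp2c29: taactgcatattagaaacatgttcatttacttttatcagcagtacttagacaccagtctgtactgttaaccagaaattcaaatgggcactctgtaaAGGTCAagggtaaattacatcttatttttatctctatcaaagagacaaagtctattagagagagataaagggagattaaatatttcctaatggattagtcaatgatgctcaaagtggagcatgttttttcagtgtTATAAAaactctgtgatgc
The window of Cyp2b10 held neither string. That of Cyp2c55 held TATAAA from base 222 of the window, and that of Cyp2c29 held AGGTCA from base 97 and TATAAA from base 232. Over the 250 bases upstream of 32851 RefSeq starts, 14.0% held AGGTCA and 12.4% held TATAAA on either strand. These matches describe the letters of the windows only, since no binding was measured.

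The deposited values are log2 expression values, on which a difference of 1 is a 2-fold change. Pairs of Pio arrays correlated at 0.987 to 0.993 over all probe sets and pairs of CMC Co5 arrays at 0.986 to 0.992. For some genes of lipid metabolism CMC Co5 livers spread more widely, with an SD of 0.213 in Pio livers and 1.18 in CMC Co5 livers for Plin4 and of 0.415 in Pio livers and 1.57 in CMC Co5 livers for Pdk4. Hepatocyte markers were at the top of the scale, with albumin (Alb) between 15.14 and 15.17 in Pio livers and between 15.14 and 15.15 in CMC Co5 livers. Markers of fat cells were low or equal, with Adipoq at 3.31 to 3.86 in Pio livers and 3.17 to 4.04 in CMC Co5 livers. In whole liver, more cells of a type and more RNA per cell cannot be told apart.

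The label was set beside genes that PPARγ is known to raise, and none of those measured passed against CMC Co5. Fabp4, a fatty acid carrier of fat cells, read 6.69, 7.30, 7.32, 7.80 and 7.25 in the 5 Pio livers, against 8.23, 7.07, 7.19 and 7.94 in the 4 CMC Co5 livers. Cidec, a protein that fuses lipid droplets, read 4.04, 4.33, 4.20, 4.00 and 3.95 in Pio livers, against 3.84, 5.43, 4.64 and 4.91 in CMC Co5 livers. For both genes the groups overlapped and the Pio mean was the lower, by −0.33 ± 0.540 for Fabp4 and −0.60 ± 0.440 for Cidec (log2 difference ± SE, limma adjusted p = 0.939 and 0.806). Against another vehicle cohort, CMC Co2, both signs turned, with a Pio difference of 1.49 for Fabp4 that passed (adjusted p = 0.0192) and of 0.34 for Cidec that did not (0.610). Against CMC Co2 5078 of the 18193 genes passed, and its Fabp4 mean, 5.78, was the lowest of CMC Co1 to Co5. Against CMC Co1, CMC Co3 and CMC Co4 the Fabp4 difference lay between −0.25 and 0.35, and none of these passed. Other Fabp4 probe sets gave −0.23, 0.18 and 0.27 against CMC Co5, so the direction differed between probe sets, and none passed. Of the 31 measured PPARγ and lipid droplet genes, 0 passed in Pio livers against CMC Co5.

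The same genes were high in the livers labelled MePy, for which 33 genes passed (0.181%), 27 higher (0.148%) and 6 lower (0.033%). Fabp4 read 9.22, 12.54, 10.25, 7.44 and 12.25 in MePy livers, against 6.81, 7.49, 6.56 and 7.02 in CMC Co3 livers. MePy replicate 4 lay below the highest of its controls and the other MePy livers above all of them, for Fabp4, Cidec, Cidea and Plin4 alike.
The MePy rise was 3.37 for Fabp4 (adjusted p = 0.000127), 2.55 for Cidec (adjusted p = 0.000348) and 3.11 for Cidea, a relative of Cidec (adjusted p = 0.000598). Methapyrilene is an antihistamine that is best known as a liver carcinogen of rats. The libraries are called by their labels throughout, and whether any label is mistaken was not tested.

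**Figure D1:**
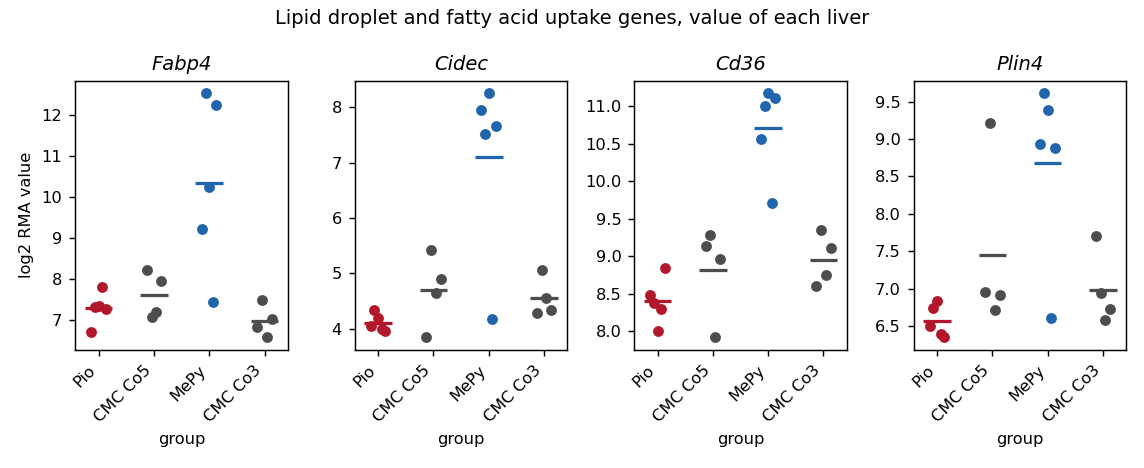
Log2 RMA values of Fabp4, Cidec, Cd36 and Plin4 in each liver, 1 point per array, with Pio left of CMC Co5 and MePy left of CMC Co3; horizontal lines are group means. The Pio values of all 4 genes lie low, beside or below CMC Co5, and most MePy values lie above CMC Co3, with 1 MePy liver low in Fabp4, Cidec and Plin4.

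Of 18193 genes, 4 passed in Pio livers at a limma adjusted p below 0.05, which is 0.022% of the genes tested, 3 of them higher (0.0165%) and 1 lower (0.0055%). Of these 2 changed at least 2-fold (0.011%), among 29 genes of that size with no regard to the test (0.159%). At an unadjusted p below 0.05 there were 1394 genes (7.66%), 721 higher (3.96%) and 673 lower (3.7%). Values of Pio livers lay above all CMC Co5 values without overlap for 358 genes (1.97%) and below them for 303 (1.67%). The median difference of all genes was 0.02. The count of 4 became 21 without Pio replicate 3, 15 without CMC Co5 replicate 3 and 11 without CMC Co5 replicate 1, and the 3 higher genes passed in each of these.

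Cyp2b10 had the largest rise. It read 11.41, 11.84, 10.93, 11.63 and 12.23 in Pio livers, against 5.82, 5.75, 5.27 and 5.35 in CMC Co5 livers. All 5 Pio livers stood far above all 4 controls. The difference of the means, 11.61 ± 0.487 (SD, n = 5) in Pio livers and 5.55 ± 0.277 (SD, n = 4) in CMC Co5 livers, was 6.06 ± 0.495 (SE), a 66.7-fold rise with a limma adjusted p of 1.17e-15. It also lay above the highest of the 22 CMC livers of C57BL mice in the series, 7.21, in all 5 Pio livers. Its other 2 probe sets, whose design may also take up RNA of related genes, gave differences of 7.78 and 8.18, which are 220- and 289-fold.

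Cyp2c55, an enzyme that oxidises arachidonic acid and is induced by drugs in mouse liver, came next. It read 10.00, 10.40, 9.80, 11.04 and 10.65 in Pio livers, against 7.28, 6.41, 6.67 and 7.25 in CMC Co5 livers. The groups did not overlap, and the difference was 3.48 ± 0.394, an 11.1-fold rise (limma adjusted p = 2.11e-09). Cyp2c29, one of the abundant P450 enzymes of mouse liver, read 13.82, 13.69, 13.96, 13.60 and 13.63 in Pio livers, against 12.51, 13.16, 13.02 and 13.02 in CMC Co5 livers. It was higher in every Pio liver, by 0.81 ± 0.116 or 1.76-fold (limma adjusted p = 4.34e-06), from a level near the top of the scale, where RMA values compress differences. For both genes all 5 Pio values also exceeded the highest of the 22 CMC livers, 8.16 for Cyp2c55 and 13.21 for Cyp2c29.

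Tor3a, a gene of the torsin family of ATPases in the endoplasmic reticulum, was the only gene that fell past the threshold, and it is named although its groups overlap and the naming rule leaves it out. It read 5.28, 5.80, 5.43, 5.70 and 5.58 in Pio livers, against 5.72, 6.67, 6.36 and 6.36 in CMC Co5 livers. CMC Co5 replicate 1 lay below the highest Pio liver and the other 3 controls lay above all Pio livers. The difference was −0.71 ± 0.142, or 0.609-fold (limma adjusted p = 0.0131). Its other 2 probe sets gave −0.76 and −0.16, neither of which passed. CMC Co5 stood high for this gene, with a mean of 6.28, beside 5.33 to 5.52 in CMC Co1 to Co4 and 5.56 in Pio livers. Against each of the other 4 CMC cohorts the sign turned, with differences between 0.04 and 0.23, and no Pio value lay outside the range of all 22 CMC livers. The call was lost without Pio replicate 1 (adjusted p = 0.123), without CMC Co5 replicate 2 (0.342) and without CMC Co5 replicate 4 (0.109).

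**Figure D2:**
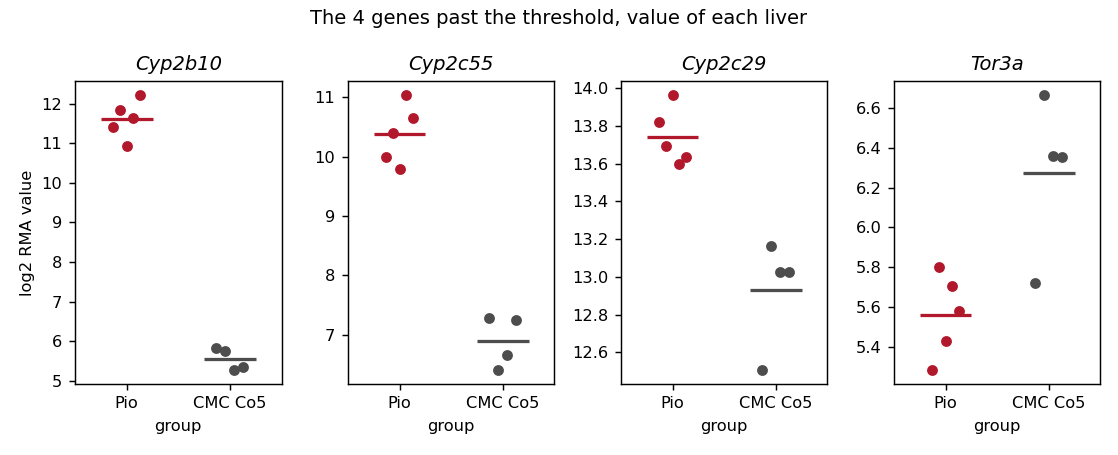
Log2 RMA values of Cyp2b10, Cyp2c55, Cyp2c29 and Tor3a in each Pio liver (left) and CMC Co5 liver (right), 1 point per array; horizontal lines are group means, and each panel has its own scale. The 3 Cyp genes separate the groups, by 6.06, 3.48 and 0.81, and the Tor3a ranges overlap.

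The remaining named genes without overlap, those with the smallest unadjusted p in each direction, did not pass. Higher were the anion exchanger Slc26a6 (0.56, adjusted p = 0.0662), Dusp6, a phosphatase that switches off ERK (1.12, 0.127), the secretory pathway cargo protein Tmed3 (0.93, 0.144), the glutathione transferases Gstm5 (0.52) and Gstm1 (0.43), the mitochondrial nuclease Endog (0.45), Gpr108 (0.39), Niban3 (0.44) and the noncoding Hoxb5os (0.72). Lower were Myef2 (−0.67, adjusted p = 0.0511), the beta-secretase Bace1 (−0.83, 0.0534), the hydroxylysine kinase Hykk (−0.76), Pex11a, a peroxisome division protein (−0.82, 0.0883), Erbin (−0.48), the cyclin Ccni (−0.49), the ephrin Efna5 (−0.54), Hectd2 (−0.85), Vps54 (−0.39), Scyl3 (−0.51), Cpeb4 (−0.64) and the mitochondrial carrier Slc25a16 (−0.44). These are log2 differences, Pio minus CMC Co5, with adjusted p between 0.0511 and 0.174 for the whole set. Efna5 shows how close such groups could lie, at 6.62, 6.79, 6.68, 6.54 and 6.61 in Pio livers, against 7.24, 7.19, 7.23 and 7.09 in CMC Co5 livers. All these differences are those of 1 probe set per gene. Other probe sets differed little for some genes, such as Efna5 (−0.07) and Tmed3 (0.10). For others they were alike, such as Hykk (−0.81 and −0.55) and Pex11a (−0.78).

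When all 34945 probe sets with a single gene symbol were tested in place of 1 per gene, 16 probe sets of 12 genes passed, 9 higher and 7 lower. The added genes were seen only after the values were known. Hspa4l, an Hsp110-type chaperone, passed with 2 of its 5 probe sets (1.04 and 1.07), and the other 3 were at 0.64 to 0.93 without passing. The groups overlapped in the second of the 2, where Pio replicate 2 read 6.91 and CMC Co5 replicate 1 read 7.10. Dnajb1, an Hsp40 co-chaperone, passed with 1 probe set (0.68) and not with its other (0.58). Dnajb1 read 8.81, 8.34, 8.70, 8.64 and 8.36 in Pio livers, against 7.77, 7.84, 7.98 and 7.96 in CMC Co5 livers, without overlap. Lower past the threshold were Tlcd4 (−1.04 and −1.07), the mitochondrial phosphatase Ppm1k, which activates breakdown of branched-chain amino acids (−0.93), the receptor phosphatase Ptprg (−0.59), Myef2 and Bace1, each with further probe sets that did not pass. Those of Bace1 were at −0.32, −0.11 and 0.00, and those of Myef2 at −0.59 and −0.19. For Tlcd4 they were at −0.35 and 0.04, for Ppm1k at −0.35 and for Ptprg at −0.30, 0.24 and −0.07. The groups overlapped in both Tlcd4 probe sets that passed, where Pio replicate 3 read 9.25 and 9.20. CMC Co5 replicate 3 read 9.23 and 9.16 in them. Endog was higher by 0.53 in a probe set that passed and by 0.45 in one that did not.

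Genes of the CAR list were higher in Pio livers more often than genes at large, although few passed. Of 28 measured members 3 passed, all of them higher, and 11 (39.3%) were higher and 0 lower at an unadjusted p below 0.05, beside 3.96% and 3.7% of all genes. In 12 of the 28 all Pio values lay above all CMC Co5 values (42.9%, beside 1.97% of all genes). The median difference of the list was 0.35, beside 0.02 for all genes. In 1 member, Cyp2c38, they lay below (3.57%, beside 1.67%). The list mean lay between 9.81 and 9.94 in Pio livers and between 9.14 and 9.32 in CMC Co5 livers, a gap of 0.66 between the groups. Without Cyp2b10 and Cyp2c55 the gap was 0.34, with 9.74 to 9.84 in Pio livers and 9.39 to 9.55 in CMC Co5 livers.

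Beyond the 3 P450 genes that passed, the larger differences fell on conjugating enzymes and on a further P450. Gstt3, a theta-class glutathione transferase, read 9.21, 9.38, 9.12, 9.59 and 9.41 in Pio livers, against 7.85, 8.27, 8.42 and 8.43 in CMC Co5 livers. The difference was 1.10 ± 0.339, with an adjusted p of 0.274. Cyp2c54 was at 13.14, 13.39, 13.33, 13.62 and 13.40 in Pio livers, against 12.53, 11.83, 12.41 and 12.68 in CMC Co5 livers, a difference of 1.01 ± 0.300 (adjusted p = 0.231). Neither gene overlapped between the groups and neither passed. In a fit of the 9 arrays alone both passed, with Gstm3, Gstm1, Cyp2c50, Thrsp, Crp and the 3 P450 genes, while Hectd2os was lower and Tor3a was not called (adjusted p = 0.181).

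Other members of the list had smaller differences or lay near the floor. Cyp2b9, a second Cyp2b gene, read 4.17 to 4.56 in Pio livers and 3.71 to 3.90 in CMC Co5 livers, near the floor of the scale and without overlap. The difference was 0.49 ± 0.674 (limma adjusted p = 0.917), with an SE that rests on the spread within all 19 groups. The efflux pump gene Abcc4 differed by 0.36, the sulfotransferase Sult3a1 by 0.08, the glutathione transferase Gstm2 by 0.00 and the noncoding Meg3 by −0.08, and none passed. The CAR list was put together with earlier results of these data known, so its count is a description.

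**Figure D3:**
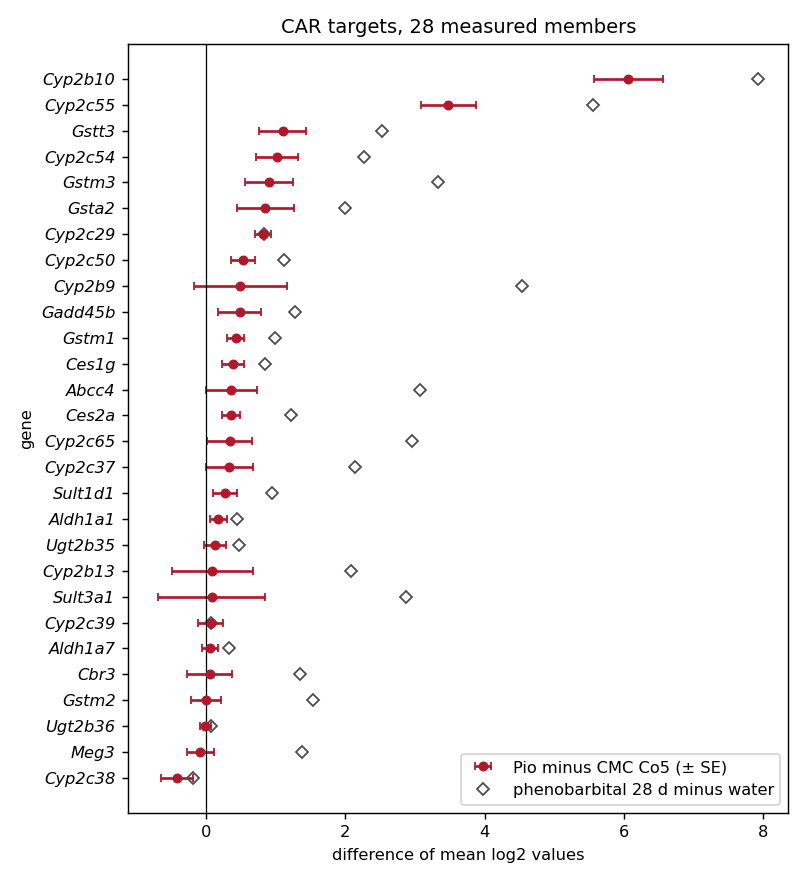
Log2 difference of each of the 28 measured CAR targets, Pio minus CMC Co5 (red circles, bars are SE), with the difference of 28 days of phenobarbital against water as open diamonds. Cyp2b10 and Cyp2c55 stand out in both, most other members are smaller in Pio livers, and the Cyp2c29 symbols fall together.

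PXR, the receptor beside CAR for drugs, shares some of these targets. Of 16 measured PXR targets only Cyp2c55 passed, and 3 were higher (18.8%) and 0 lower at an unadjusted p below 0.05, beside 3.96% and 3.7% of all genes. Cyp2c55, Ces2a and Thrsp were these 3. Cyp3a11, the P450 by which PXR activity is usually read in mice, was at 14.62, 14.66, 14.59, 14.59 and 14.53 in Pio livers, against 14.60, 14.68, 14.56 and 14.67 in CMC Co5 livers. It differed by −0.03 ± 0.055, at a level where the scale may be saturated. Cyp3a13 was higher by 0.43 and Alas1, the first enzyme of haem synthesis, by 0.78, with adjusted p of 0.680 and 0.736.

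Of 29 measured targets of NRF2, the factor that answers oxidants, 0 passed, and 4 were higher (13.8%) and 0 lower at an unadjusted p below 0.05, beside 3.96% and 3.7% of all genes. All 4 were glutathione transferases, namely Gsta2 (0.85), Gstm1 (0.43), Gstm3 (0.90) and Gstm4 (0.53), of which Gsta2, Gstm1 and Gstm3 also stand in the CAR list. Nqo1, a quinone reductase and a standard NRF2 target, differed by 0.27 ± 0.259 (adjusted p = 0.862). Cyp1a2, a target of the aryl hydrocarbon receptor, differed by −0.03.

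Among the 31 measured PPARγ and lipid droplet genes, 0 were higher and 5 lower at an unadjusted p below 0.05 (16.1%, beside 3.7% of all genes), with a median of −0.21, beside 0.02. The list mean also separated the groups, with 8.22 to 8.44 in Pio livers, all below the 8.48 to 8.84 of CMC Co5 livers. The 5 lower members were Plin2, Plin4 and Plin5, which coat lipid droplets, G0s2, an inhibitor of fat breakdown, and Fgf21, a liver hormone of fasting. G0s2 read 10.70, 10.91, 11.07, 10.51 and 10.33 in Pio livers, against 10.61, 13.12, 12.34 and 12.39 in CMC Co5 livers, a difference of −1.41 ± 0.467 (adjusted p = 0.324). Only CMC Co5 replicate 1 lay within the Pio range. Without CMC Co5 replicate 2, which was the highest control in G0s2, Plin4 and Fgf21, 2 members were left at an unadjusted p below 0.05. Against other CMC cohorts the count of lower members was as low as 1, where the share of all genes was not computed.

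Fgf21 read 6.46, 8.55, 8.14, 6.40 and 6.84 in Pio livers, against 7.69, 11.91, 10.06 and 9.35 in CMC Co5 livers. It had the largest difference towards lower values of any gene, −2.48 ± 0.683, and did not pass (adjusted p = 0.174). CMC Co5 stood high for this gene, since against the other 4 CMC cohorts the Pio difference lay between −0.56 and 0.70. Of the receptors themselves, Pparg was at 6.83 to 7.61 in Pio livers and 6.95 to 7.69 in CMC Co5 livers, and Rxra differed by 0.05. Ppara differed by −0.51 (limma adjusted p = 0.518), and its other probe sets by −0.54 and −0.57, without passing. The fatty acid transporter Cd36 differed by −0.42 and Mogat1, an enzyme of triglyceride synthesis, by −0.22.

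PPARα targets gave a similar picture. Of 50 measured members 0 passed, 12 were lower (24.0%, beside 3.7% of all genes) and 1 higher at an unadjusted p below 0.05, and the median was −0.18. Cyp4a14, a fatty acid hydroxylase that PPARα drives strongly, read 10.61, 11.11, 9.85, 9.56 and 8.97 in Pio livers, against 10.05, 13.21, 10.99 and 11.75 in CMC Co5 livers. The groups overlapped, with a difference of −1.48 ± 0.865 (adjusted p = 0.730), and CMC Co5 replicate 2 was again the highest. Against CMC Co2 the sign turned, with a Pio difference of 3.12 that passed, as 5078 genes did there. The Cyp4a14 mean of CMC Co2, 6.90, was the lowest of CMC Co1 to Co5. Pdk4, a kinase that spares glucose in fasting, differed by −1.10 and was at 11.11 in that replicate, against 7.31, 8.75 and 8.98 in the other CMC Co5 livers. Without CMC Co5 replicate 2 the count of lower members was 3, without Pio replicate 1 it was 6 and without Pio replicate 5 it was 7. Against other CMC cohorts it was as low as 1, again without a share of all genes computed.

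For fatty acid and triglyceride synthesis, 0 of 31 measured members passed, and 4 were higher (12.9%) and 0 lower at an unadjusted p below 0.05, beside 3.96% and 3.7% of all genes. The list median was 0.09, with 18 means higher and 13 lower. Thrsp, a factor that promotes lipogenesis and is also a target of CAR and PXR, read 12.87, 12.81, 12.44, 13.20 and 13.33 in Pio livers, against 11.93, 11.54, 11.89 and 11.67 in CMC Co5 livers. The groups did not overlap, and the difference was 1.18 ± 0.352 (adjusted p = 0.244). The fatty acid synthase Fasn differed by 0.51, the elongase Elovl6 by 0.56 and Mid1ip1, a partner of acetyl-CoA carboxylase, by 0.58, each without overlap and without passing. The desaturase Scd1, at 14.52 to 14.77 in Pio livers and 14.57 to 14.81 in CMC Co5 livers, differed by −0.06.

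Among 31 measured genes of the unfolded protein and integrated stress responses 0 passed, with 5 higher (16.1%) and 3 lower (9.68%) at an unadjusted p below 0.05, beside 3.96% and 3.7% of all genes. The chaperone-side genes Manf (0.72, adjusted p = 0.174), Dnajb9 (0.74, 0.387) and Creld2 (0.57, 0.666) had higher means in Pio livers, and the ATF4 target Trib3 a lower one (−0.71, 0.560). Ddit3, the gene of the death-linked factor CHOP, differed by 0.00. Of 37 measured genes of S phase and mitosis 0 passed, 1 was higher (2.7%) and 2 lower (5.41%) at an unadjusted p below 0.05, shares near the 3.96% and 3.7% of all genes. Mki67 read 4.78 to 5.34 in Pio livers and 4.97 to 5.46 in CMC Co5 livers, Ccnd1 differed by −0.24, and Mcm7, a part of the replicative helicase, by −0.48 (adjusted p = 0.230).

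Markers of macrophages and Kupffer cells, the resident macrophages of the liver, varied within both groups. Of 23 markers 0 passed, 7 were higher (30.4%, beside 3.96% of all genes) and 0 lower at an unadjusted p below 0.05, and 0 separated the groups without overlap. The complement receptor Vsig4 read 8.55, 7.02, 8.67, 7.78 and 8.35 in Pio livers, against 8.54, 5.20, 6.30 and 7.10 in CMC Co5 livers. CMC Co5 replicate 1 was as high as the highest Pio livers and CMC Co5 replicate 2 the lowest of all, as also for Lyz2, C1qa, C1qc and Csf1r. The list mean ran from 6.59 to 7.31 in Pio livers and from 5.91 to 7.34 in CMC Co5 livers. The count was 0 without CMC Co5 replicate 2, 2 without CMC Co5 replicate 3, 13 without CMC Co5 replicate 1, 11 without Pio replicate 2 and 4 without Pio replicate 1 or 3. The CAR list count was between 9 and 11 in the same omissions. Whether macrophage RNA has a part in other differences was not tested.

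Acute phase genes, which hepatocytes switch on in inflammation, differed more between mice than between groups. Saa1 read 14.02, 12.74, 11.77, 10.19 and 13.49 in Pio livers, against 13.80, 8.38, 12.24 and 8.33 in CMC Co5 livers. CMC Co5 replicates 1 and 3 lay within the Pio range and replicates 2 and 4 below it. Of 27 measured members 0 passed, and 1 was higher and 1 lower at an unadjusted p below 0.05 (3.7% each), near the shares of all genes. Hamp, the iron hormone hepcidin, differed by −0.75 (adjusted p = 0.527) and Mt2 by 0.74.

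Genes of other functions fixed for description stayed short of the threshold. They were Cyp7a1, the rate-limiting enzyme of bile acid synthesis (0.71, adjusted p = 0.742), Cyp26a1, which breaks down retinoic acid (0.85, 0.504, without overlap), Igfbp1 (0.67), Gadd45b (0.48), Dbp of the circadian clock (0.30), Elovl3 (−0.28) and Sult1e1 (0.08). Moxd1 read 5.84, 3.99, 6.18, 4.23 and 7.28 in Pio livers, against 4.34, 4.15, 5.25 and 4.15 in CMC Co5 livers. It was high in 3 Pio livers and low in 2, with a difference of 1.03 ± 0.922.

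**Figure D4:**
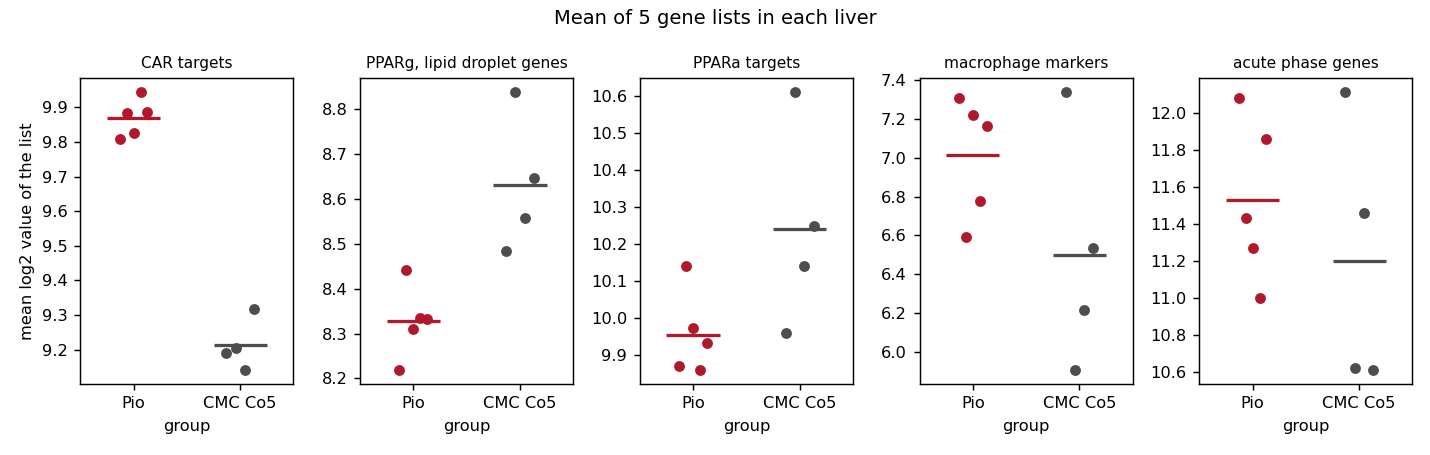
Mean log2 value of the measured members of 5 gene lists in each Pio liver (left) and CMC Co5 liver (right), 1 point per array; horizontal lines are group means, and each panel has its own scale. The CAR list lies higher in all Pio livers, at 9.81 to 9.94 against 9.14 to 9.32, the PPARγ list lower, at 8.22 to 8.44 against 8.48 to 8.84, and the lists of PPARα, macrophage and acute phase genes overlap.

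The Pio response was compared with that of MePy, each against its own CMC cohort, by testing the difference of the 2 responses. Of 18193 genes 25 differed (0.137%), 4 with a higher response in Pio livers (0.022%) and 21 with a lower one (0.115%). The 4 were Cyp2b10 (6.42 ± 0.700, adjusted p = 8.16e-10), Cyp2c55 (3.49 ± 0.558, 0.000117), Cyp2c29 (1.21 ± 0.164, 1.35e-06) and the carboxylesterase Ces2a (0.82 ± 0.182, 0.0256). For Cyp2b10 the Pio response was 6.06 and the MePy response −0.36. MePy livers read 5.40, 6.03, 5.79, 6.28 and 4.83 for this gene, against 5.45, 7.21, 5.70 and 5.77 in CMC Co3 livers, and 2 of the MePy values lay below all of these.

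The 6 largest of the 21 lower responses were genes of lipid storage, uptake and synthesis and 1 pantetheinase. They were Fabp4 (−3.70 ± 0.764, adjusted p = 0.0127), Cidec (−3.15 ± 0.622, 0.00812), Plin4 (−2.59 ± 0.547, 0.0150), the pantetheinase Vnn1 (−2.44 ± 0.522, 0.0150), the acyltransferase Gpat3 (−2.37 ± 0.552, 0.0396) and Cd36 (−2.19 ± 0.481, 0.0238). Cidea, at −3.16 ± 0.788, did not pass (adjusted p = 0.0910). The count was 10 without CMC Co5 replicate 2, 14 without Pio replicate 4, 15 without CMC Co5 replicate 1 and 16 without CMC Co5 replicate 4. Pioglitazone was given by gavage and methapyrilene in the food, so compound and route cannot be told apart.

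Against Wy-14643, given at the same dose, time and route, the responses differed for 549 genes (3.02%), 263 higher (1.45%) and 286 lower (1.57%) in Pio livers. The 6 largest with a higher Pio response included Cyp2b10 (5.11 ± 0.700, adjusted p = 2.17e-07) and 5 genes that fell in WY livers. Among these Serpina12 fell by −7.06 in WY livers and Hsd3b5, a male-biased steroid enzyme, by −6.78, whereas their Pio differences were −0.26 and −0.28. Slco1a1, Cyp2c54 and Serpina4-ps1 were the others. The 6 largest with a lower Pio response were Fabp4 (−5.48), Cyp2b9 (−5.27), Cidea (−5.08), Rad51b (−4.38), Cyp4a31 (−4.11) and the lipoprotein lipase gene Lpl (−3.83), which all rose in WY livers. Their Pio differences lay between −0.58 and 0.49, and none passed. The other Cyp4a31 probe set gave −1.04 in Pio livers against CMC Co5, outside this range and also without passing. Without CMC Co5 replicate 2 the count was 364.

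**Figure D5:**
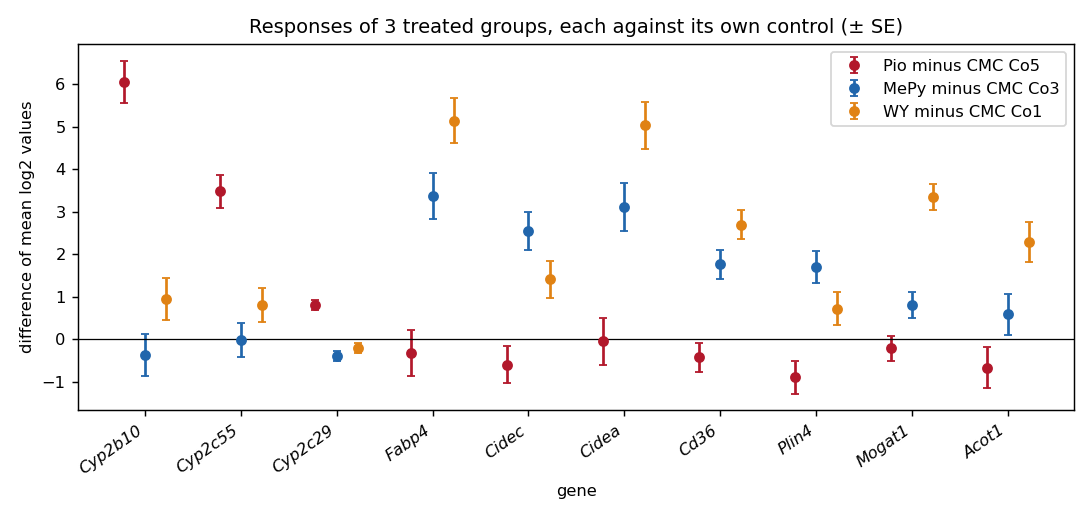
Log2 differences of 10 genes in Pio livers against CMC Co5 (red), MePy livers against CMC Co3 (blue) and WY livers against CMC Co1 (orange), with SE bars. The 3 Cyp genes are high in Pio livers, by 6.06, 3.48 and 0.81, and Fabp4, Cidea and Cd36 are high in MePy and WY livers.

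Phenobarbital, the classic CAR activator, was added to the comparisons after the Pio values had been seen. Dose, route and vehicle differ, so the values are set side by side. Cyp2b10 read 11.41, 11.84, 10.93, 11.63 and 12.23 in Pio livers and 13.74, 13.50, 13.42, 13.62 and 13.56 in PB livers, which do not overlap. The responses were 6.06 in Pio livers against CMC Co5 and 7.93 in PB livers against water, a difference of −1.87 (95% interval −3.23 to −0.52) that did not pass over all genes (adjusted p = 0.574). The Cyp2c29 responses were 0.81 and 0.83, with an interval of the difference from −0.33 to 0.30.

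Over all genes the Pio and PB responses differed for 10 (0.055%), 0 higher (0.0%) and 10 lower in Pio livers by limma. At an unadjusted p below 0.05 there were 1128 (6.2%), 641 higher (3.52%) and 487 lower (2.68%). The 10, chosen after their values were seen, include Abcc4 (−2.71), Cyp2c65 (−2.62), Gstm3 (−2.43), Gstm2 (−1.54), Meg3 (−1.46), the pancreatic lipase relative Pnliprp1 (−1.27), Cpe (−1.06) and Ces2a (−0.87). In PB livers against water 176 genes passed (0.967%). Of the 104 that rose (0.572%), 28 were higher (26.9%, beside 3.96% of all genes) and 0 lower in Pio livers at an unadjusted p below 0.05. Of the same genes 26 lay above CMC Co5 without overlap (25%, beside 1.97%), and 3 passed. Of the 72 that fell (0.396%), 0 were higher and 23 lower in Pio livers at that p (31.9%, beside 3.7%), and 10 lay below CMC Co5 without overlap (13.9%, beside 1.67%).

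The Cyp2b10 difference of Pio livers (6.06) was set beside those of the other C57BL groups, each against its control. Cyproterone acetate and 1,4-dichlorobenzene shared the same corn oil control. Pio stood after PB at 28 days (7.93), PB at 56 days (6.98) and 1,4-dichlorobenzene (6.47), and before cyproterone acetate (5.60) and piperonyl butoxide (2.70). The SE of each difference is 0.467 or 0.495, and no test was made between these neighbours. WY (0.95), CITCO (0.42) and MePy (−0.36) did not pass for this gene. In level, Pio livers at 10.93 to 12.23 overlapped the cyproterone acetate livers, at 9.76 to 13.02, and the 1,4-dichlorobenzene livers, at 11.92 to 13.19.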

How the data were processed

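Per the labels' protocols, RNA from frozen livers of 91 male mice was isolated in Qiazol, amplified with a 3'IVT Express kit and hybridised to Affymetrix mouse arrays. The deposited table holds log2 values of 45037 probe sets, which the submitters' processing notes credit to RMA. The version of RMA and a genome build are not given in the sources used here. RMA equalises arrays, so a change in total RNA is not seen, and it compresses differences at both ends of the scale. Values ran from 2.61 to 15.34 and array medians from 5.18 to 5.36. The number of arrays limits the precision. Scan dates and other batches are not given in the files used, so a batch that follows the cohorts cannot be told apart from treatment.

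Probe sets were named by the platform annotation, with a single symbol for 34945, several for 932 and none for 9160, and 34741 of the single ones also matched RefSeq. Each gene was taken by its probe set with the highest mean, which gave 18193 genes, 9010 of them with more than 1 probe set. Close relatives (Cyp2b, Cyp2c, Gstm, Saa) may share signal. A means model of 19 groups over all arrays (72 residual degrees of freedom) was fitted with limma 3.58.1 in R 4.3.3, with a mean-variance trend, two-sided moderated tests and Benjamini-Hochberg adjustment over all genes. It was tested on simulated data. SEs and p-values rest on the spread between arrays within a group, pooled over all 19 groups and moderated across genes. They do not rest on the spread of Pio and CMC Co5 livers alone. The 19 groups include those of hCAR/hPXR mice, given CITCO or CMC, whose arrays also enter this spread.

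The comparison, the gene lists and the 10 lists described were chosen with earlier results of these data known. The named genes are the largest changes past the threshold without overlap, filled to 12 per direction by the smallest unadjusted p, a fixed set, up to 5 members of each list described with the largest change, and the 6 largest differences of response in each direction. Alternatives were other probe set rules, fits of fewer arrays, other scalings, a filter on dim genes, array weights, each array left out, a replicate block and other CMC cohorts. The CMC controls of the series include injection and gavage cohorts, so route may differ between the cohorts set beside Pio livers. Promoter sequences are from RefSeq, GRCm38.p6.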

Additional observations from a re-analysis of the deposited data

Results flagged for a closer look

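Over 200 pairs of a named gene and a group, 9 had 1 liver that stood apart from the rest of its group, and chance alone flags about 1 in 20 groups. Among Pio livers these were replicate 2 in Hoxb5os (5.744), in Creld2 (10.39) and in C1qa (7.282), replicate 1 in Ube2c (5.682) and replicate 4 in Myef2 (5.994). Among CMC Co5 livers they were replicate 2 in Plin4 (9.221) and in Gpat3 (8.198), replicate 1 in Hoxb5os (4.057) and replicate 4 in Ces2a (12.41).

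The Pio response differed from another response by the limma test of the difference for the following named genes, given as log2 differences of the responses. Against WY, 17 were higher in Pio livers, namely Cyp2b10 (5.107), Cyp2c55 (2.666), Cyp2c29 (1.02), Slc26a6 (0.7309), Dusp6 (2.046), Gpr108 (0.5429), Hoxb5os (1.151), Gstm1 (0.6694), Cyp1a2 (1.032), Cyp2c54 (4.297), Manf (0.9554), Creld2 (1.448), Serpina12 (6.795), Hsd3b5 (6.498), Slco1a1 (4.329), Serpina4-ps1 (3.831) and Ces2a (1.235). The 21 lower in Pio livers against WY were Myef2 (−0.7513), Bace1 (−1.174), Pex11a (−1.035), Ccni (−0.6446), Efna5 (−0.9827), Tor3a (−0.7966), Acot1 (−2.957), Cidea (−5.082), Fabp4 (−5.476), Cd36 (−3.114), Mogat1 (−3.561), Mki67 (−1.861), Vnn1 (−2.028), Scd2 (−3.057), Ccna2 (−1.737), Ube2c (−2.177), Cyp2b9 (−5.272), Rad51b (−4.384), Cyp4a31 (−4.113), Lpl (−3.834) and Gpat3 (−2.897).

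Against MePy the higher ones were Cyp2b10 (6.422), Cyp2c55 (3.489), Cyp2c29 (1.208) and Ces2a (0.8182), and the lower ones were Pex11a (−1.176), Cidec (−3.148), Fabp4 (−3.699), Plin4 (−2.59), Cd36 (−2.188), Vnn1 (−2.444) and Gpat3 (−2.369). Against PB the lower ones were Meg3 (−1.464), Gstm3 (−2.43) and Ces2a (−0.8673). Of these, Serpina12, Hsd3b5, Lpl and Cyp2b9 did not pass between Pio and CMC Co5 livers, where their differences were −0.26, −0.28, 0.04 and 0.49.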

How the results depend on the processing

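Cyp2b10, Cyp2c55 and Cyp2c29 passed under all 22 alternatives run for each, between 5.58 and 7.34 for Cyp2b10, 3.08 and 4.04 for Cyp2c55 and 0.67 and 0.95 for Cyp2c29. The count of 4 genes (3 higher, 1 lower) became 11 with the mean of the probe sets of a gene (6 higher, 5 lower), 16 with all probe sets tested (9 and 7), 11 with only Pio and CMC Co5 arrays (10 and 1), 8 with arrays centred on the median (3 and 5), 5 with cyclic loess (3 and 2), 7 for genes with a mean of at least 6 (4 and 3) and 68 with array weights (27 and 41). It was 1542 against CMC Co1, 5078 against CMC Co2, 92 against CMC Co3, 732 against CMC Co4 and 1058 against the mean of 5 cohorts, which adds the differences between cohorts. The count of 2 genes changed at least 2-fold became 8 probe sets with all tested, 6 genes with only the pair, 7 with array weights, and 89, 688, 16, 92 and 19 in the same order of cohorts. The cause of these moves was not tested, beyond what fewer genes, fewer arrays or other controls bring by construction. Leaving out 1 array gave 3 to 21 genes (21 without Pio replicate 3, 15 without CMC Co5 replicate 3, 11 without CMC Co5 replicate 1) and 2 to 5 genes at 2-fold (5, 4 and 4 for the same arrays). It gave 364 to 579 genes for Pio minus WY, 10 to 21 for Pio minus MePy and 8 to 14 for Pio minus PB. The last count was 49 with only the 4 groups, 6 for genes with a mean of at least 6 and 107 with array weights. Against other CMC cohorts the sign turned, with the value on at least 1 side past the threshold, for these named genes: Tor3a (0.0744) and Dbp (−1.96) against CMC Co1; Endog (−0.47), Tor3a (0.23), Cyp3a11 (0.20), Cyp4a14 (3.12), Acot1 (2.87), Pdk4 (1.59), Fabp4 (1.49), Dbp (−2.79), Cyp26a1 (−1.27), Vnn1 (2.33), Csf1r (−1.32) and Orm2 (−2.37) against CMC Co2; Tor3a (0.0412) against CMC Co3; Tor3a (0.16), Pdk4 (1.81), Saa2 (−3.54), Dbp (−3.57), Elovl3 (1.99), Cyp26a1 (−1.10), Orm2 (−3.19) and Mt2 (−3.07) against CMC Co4; and Dbp (−1.97) against the mean of 5 cohorts. Signs also turned for genes that passed on neither side. Against CMC Co1 to Co4 the CAR list had 8 to 14 members higher at an unadjusted p below 0.05, beside 11. Against the same cohorts the lower members were as few as 1 for PPARα targets, beside 12 against CMC Co5. For PPARγ and lipid droplet genes they were as few as 1, beside 5. The share of all genes at that p was not computed against CMC Co1 to Co4. Since 92 to 5078 genes passed the adjusted threshold against them, the 3.96% and 3.7% of all genes against CMC Co5 do not serve as background there. Same-numbered Pio and CMC Co5 livers correlated at −0.24 to 0.19 in their deviations, and different-numbered ones at −0.24 to 0.36. With 4 same-numbered pairs this cannot decide whether the numbers pair the mice. With a replicate block 4 genes passed, 2 of them at 2-fold, and the Cyp2b10 difference was 5.90, with no call changed.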
